A study of Mus musculus with 2 samples.

Results

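The miR-17/92 cluster on chromosome 14 and the miR-106b/25 cluster on chromosome 5 are a pair of related groups of microRNA (miRNA) genes outside the sex chromosomes. Their 9 genes, chosen by name and position from the 2202 miRNA genes counted, are Mir17, Mir18, Mir19a, Mir20a, Mir19b-1 and Mir92-1 in the first and Mir106b, Mir93 and Mir25 in the second. They were measured by small RNA sequencing, with a size range under 30 nucleotides, in adrenal gland tissue from 2 males aged 4 days. The strain was B6CASTF1/J, the first-generation cross between C57BL/6J and the wild-derived CAST/EiJ, and no treatment or altered allele is given in the labels. Replicate 1 came from male 3 and replicate 2 from male 4, although both entries name the same donor. Both belong to 1 group, so the report describes levels and how far the libraries differed, and compares no conditions.

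A miRNA is cut from a hairpin precursor and pairs with messenger RNAs mainly through its seed, bases 2 to 8, which lowers the output of those messages. The miR-17/92 transcript is switched on by the growth regulators MYC and E2F, and its miRNAs are known to restrain cell-cycle inhibitors such as Cdkn1a and the cell death factor Bcl2l11. The miR-106b/25 hairpins lie inside Mcm7, a gene for a subunit of the helicase that licenses DNA replication, and are made in dividing cells together with it. The adrenal gland grows and remodels its steroid-producing cortex after birth around a medulla of chromaffin cells.

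The mature sequences are shown because the 9 genes carry only 4 seeds between them, and because loci with nearly the same letters limit how reads can be placed. For each gene the arm that defines its family is printed 5′ to 3′, from RefSeq on GRCm38.p6 (all 9 matched), with the seed in capitals.

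The first seed is shared by 4 genes, Mir17 and Mir20a of chromosome 14 and Mir106b and Mir93 of chromosome 5.
miR-17-5p: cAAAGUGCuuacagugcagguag
miR-20a-5p: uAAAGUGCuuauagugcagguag
miR-106b-5p: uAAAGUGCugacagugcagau
miR-93-5p: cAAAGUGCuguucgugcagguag

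The second seed, of Mir18 alone, differs from the first by 1 base within the seed. With positions counted from 1 at the 5′ end of miR-20a-5p, that change is A4G.
miR-18a-5p: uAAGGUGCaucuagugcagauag

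The third seed belongs to the miR-19 genes of chromosome 14, whose mature forms differ from each other by the single change U11C from miR-19a-3p to miR-19b-3p.
miR-19a-3p: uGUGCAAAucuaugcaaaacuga
miR-19b-3p: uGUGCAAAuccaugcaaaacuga

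The fourth seed is shared by Mir92-1 of chromosome 14 and Mir25 of chromosome 5.
miR-92a-3p: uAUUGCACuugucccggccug
miR-25-3p: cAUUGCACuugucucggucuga

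All 6 genes of the chromosome 14 cluster lie on the plus strand of mm10 within 836 bases, chr14:115043671-115044506, inside the noncoding host gene Mir17hg. Each overlaps an exon of an annotated Mir17hg transcript. In order of transcription they are Mir17, Mir18 (starting 180 bases after Mir17), Mir19a (329), Mir20a (486), Mir19b-1 (634) and Mir92-1 (756). The 3 genes of the chromosome 5 cluster lie on the minus strand within 498 bases, chr5:138165321-138165818, inside Mcm7. Mir106b comes first and lies in an intron, and Mir93 and Mir25 follow 208 and 414 bases later and overlap an exon of at least 1 annotated Mcm7 transcript. Apart from these hosts, no gene of another type than miRNA is annotated over the 9 hairpins, and the opposite strand had 0 counts at all 9 in both libraries.

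Replicate 1 held 3961630 and replicate 2 held 1686822 sense-strand miRNA counts, so low levels were less precise in replicate 2. Levels are counts scaled to a total of 1000000 (CPM), and 3 counts, the limit that a count of 0 allows, were 0.757 and 1.78 CPM. Reads that fitted more than 1 place in the genome, 27.0% and 25.7% of all reads, are not in these counts. Mir375 and the 3 miR-7 genes, known from chromaffin and other endocrine cells, summed to 36299 and 46670 CPM, most of it Mir375 (31129 and 42377 CPM). Mir7b (4570 and 3754 CPM) and Mir7-2 (138 and 67.0 CPM) were lower in replicate 2, and Mir7-1 was at 462 and 472 CPM. Mir202, known from the adrenal cortex and gonads, was at 54.0 and 75.9 CPM. Each animal gave 1 library, and fewer cells that make a miRNA cannot be told apart from less of it per cell.

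Together the 9 genes held 1.43% of miRNA counts in replicate 1 (exact 95% interval 1.42 to 1.44%) and 0.991% in replicate 2 (0.976 to 1.01%). The chromosome 14 cluster summed to 8673 and 6097 CPM in replicates 1 and 2, a mean of 7385 ± 1821 (SD, n = 2). The chromosome 5 cluster summed to 5623 and 3812 CPM, a mean of 4717 ± 1280 (SD, n = 2). The larger cluster was thus higher in each library, although the highest chromosome 5 sum and the lowest chromosome 14 sum lay close together. Intervals throughout cover counting error only and not variation between animals. They take reads as independent, though sequencing reads are not independent molecules, so they may be too narrow.

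Mir17, the first hairpin of its transcript, was the most abundant of the 9 genes, with 18393 counts (4643 CPM) in replicate 1 and 5813 counts (3446 CPM) in replicate 2. It ranked 44 among all 2202 genes by mean level. Mir20a, which has the same seed, had 6566 and 1518 counts, or 1657 and 900 CPM. Mir18 had 4350 and 1141 counts, or 1098 and 676 CPM. All of these were lower in replicate 2.

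Mir92-1, the last hairpin of the transcript, had 4949 and 1805 counts, or 1249 and 1070 CPM. Its level lay close to those of Mir20a and Mir18, so distance from the start of the transcript gave no single order. The miR-19 genes stood apart from their 4 neighbours. Mir19a had 59 and 4 counts, or 14.9 and 2.37 CPM. Mir19b-1 had 41 and 4 counts, or 10.3 and 2.37 CPM. Both were under 10 counts in replicate 2, while the other 7 genes passed that minimum in both libraries.

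In the chromosome 5 cluster the middle hairpin was the highest. Mir93 had 13267 and 3499 counts, or 3349 and 2074 CPM, and ranked 51 by mean level. Mir106b had 6704 and 2052 counts, or 1692 and 1216 CPM. Mir25 had 2304 and 879 counts, or 582 and 521 CPM, and was the least abundant of the 3 in both libraries. The plot of levels by gene shows that the order of the 3 was the same in replicate 1 and replicate 2.

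**Figure D1:**
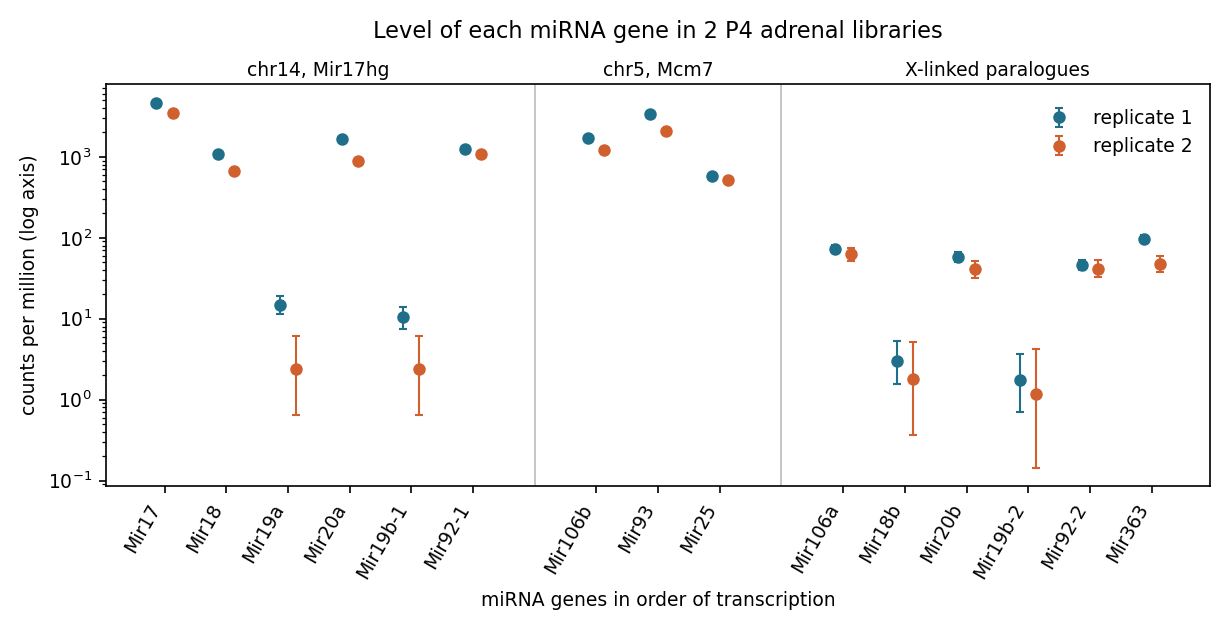
Level in CPM (log axis) of the 9 members and of the 6 genes of the X-linked paralogous cluster, in order of transcription within each cluster. Points are single libraries (blue, replicate 1; orange, replicate 2) and bars are exact 95% counting intervals; Mir19a and Mir19b-1 lie at or under 14.9 CPM while the other 7 members lie at or above 521 CPM.

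By mean level the order was Mir17 (4044 ± 846 CPM, SD, n = 2), Mir93 (2712 ± 901), Mir106b (1454 ± 336), Mir20a (1279 ± 536), Mir92-1 (1160 ± 127), Mir18 (887 ± 298), Mir25 (551 ± 42.8), Mir19a (8.63 ± 8.85) and Mir19b-1 (6.36 ± 5.64). The ranges over the 2 libraries did not overlap between Mir17 and Mir93, between Mir93 and Mir106b, between Mir18 and Mir25, or between Mir25 and Mir19a. They overlapped from Mir106b through Mir20a and Mir92-1 to Mir18, neighbour by neighbour, and between the 2 miR-19 genes. Mir20a was above Mir92-1 in replicate 1 and below it in replicate 2. The detected genes nearest to Mir17 in level over both libraries were Mir7b, Mir27b and Mir409, at distances of 0.13, 0.38 and 0.38 in log2 CPM. Those nearest to Mir93 were Mir28a, Mir376a and Mir409, at 0.18, 0.44 and 0.49.

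Since all 6 genes of the chromosome 14 cluster come from 1 transcript, their shares of its counts show how unevenly the mature products were counted. Mir17 held 53.5% of them in replicate 1 (exact 95% interval 53.0 to 54.1%) and 56.5% in replicate 2 (55.6 to 57.5%). Mir20a held 19.1% (18.7 to 19.5%) and 14.8% (14.1 to 15.5%). Mir92-1 held 14.4% in replicate 1 and 17.5% (16.8 to 18.3%) in replicate 2. Mir18 held 12.7% in replicate 1 and 11.1% (10.5 to 11.7%) in replicate 2. The 2 miR-19 genes held 0.172% and 0.0389% (Mir19a) and 0.119% and 0.0389% (Mir19b-1). The counting intervals of the 2 libraries did not overlap for Mir17 and Mir92-1, higher in replicate 2, or for Mir18, Mir20a and Mir19a, lower in replicate 2, and overlapped for Mir19b-1.

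Put as a ratio of counts, Mir17 exceeded Mir19a 312-fold in replicate 1 (exact 95% interval 242 to 410) and 1453-fold in replicate 2 (567 to 5335). Against Mir18 the ratio was 4.23 and 5.09, and against Mir92-1 it was 3.72 and 3.22. In the chromosome 5 cluster Mir93 held 59.6% (58.9 to 60.2%) and 54.4% (53.2 to 55.6%) of the counts. Mir106b held 30.1% and 31.9%, and Mir25 held 10.3% (9.95 to 10.8%) and 13.7% (12.8 to 14.5%). Mir93 exceeded Mir25 5.76-fold in replicate 1 and 3.98-fold in replicate 2.

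**Figure D2:**
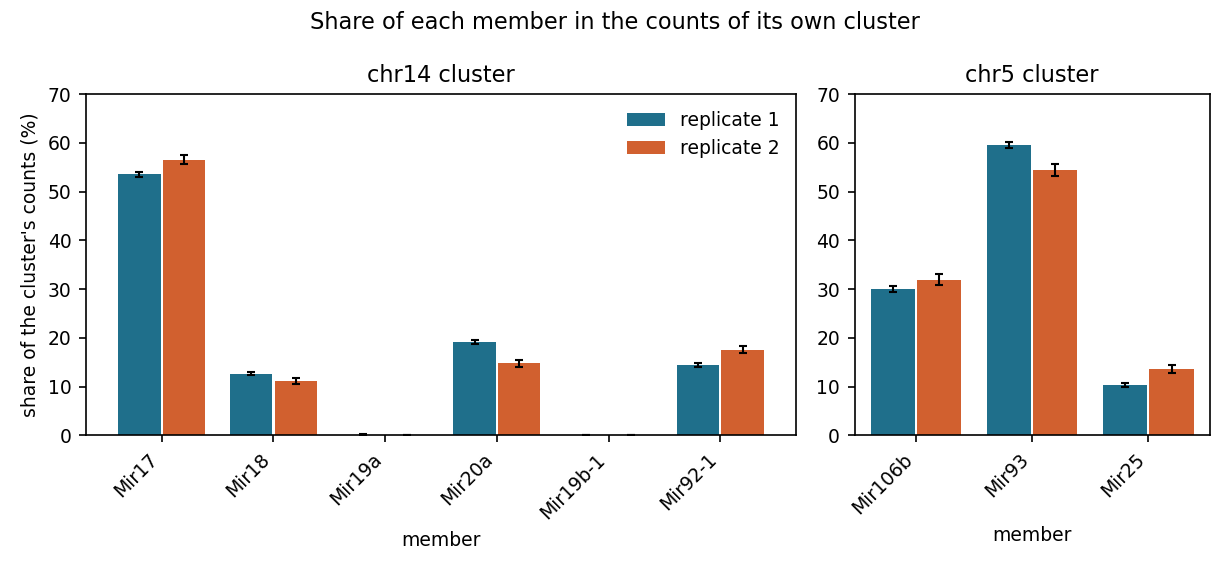
Share of each member in the summed counts of its own cluster (percent, bars from 0) in replicate 1 (blue) and replicate 2 (orange), with exact 95% counting intervals. Mir17 holds over 53% and Mir93 over 54% in each library, and the bars of Mir19a and Mir19b-1, at most 0.172%, cannot be seen at this scale.

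The balance of the clusters was nearly the same in the 2 animals. Chromosome 5 gave 39.3% of the 56633 counts of both clusters in replicate 1 (exact 95% interval 38.9 to 39.7%) and 38.5% of 16715 counts in replicate 2 (37.7 to 39.2%), a mean of 38.9% ± 0.611 (SD, n = 2). Restricted to the 7 members whose printed mature form no other locus holds, the share was 43.1% ± 0.00306 (SD, n = 2).

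The gap between the miR-19 genes and their neighbours was set beside other runs of miRNA genes on 1 strand with gaps under 10 kb. Among genes with at least 10 counts in both libraries, 17 such runs had at least 3 genes, and the highest mean level exceeded the lowest by a median of 24.9-fold. By that rule the chromosome 14 run kept 4 genes and spanned 4.56-fold (Mir17 over Mir18), the 14th widest, and the chromosome 5 run spanned 4.92-fold, the 13th. With at least 10 counts in either library, which admits the miR-19 genes, the chromosome 14 run spanned 636-fold and was the 4th widest of 17, against a median of 57.8-fold. Its lowest gene was then Mir19b-1, whose mature form another locus holds. Without genes of shared mature form, 14 runs remained, and the chromosome 14 run spanned 469-fold (Mir17 over Mir19a), the 2nd widest. The latter 2 rules were added once the values were known.

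Sharing of sequence between loci differed among the members. The printed mature forms of Mir92-1 and Mir19b-1 occur also in the X-linked genes Mir92-2 and Mir19b-2, so reads of exactly those letters fit both places. The hairpins of Mir92-1 and Mir92-2 share the 22-base run printed here, with the mature form in capitals.
Mir92-1 and Mir92-2: gUAUUGCACUUGUCCCGGCCUG

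After this run Mir92-1 has U and Mir92-2 has A, so a read of this arm shows its origin only if it reaches beyond the run at either end. The 25-base run shared by Mir19b-1 and Mir19b-2 ends in the same way, with C after it in Mir19b-1 and U in Mir19b-2. The counts of these loci are therefore uncertain, and those of Mir92-1 and Mir19b-1 are not full counts of miR-92a and miR-19b.

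The mature form of Mir19a occurs in no other of the 2202 annotated miRNA hairpins, and the longest run it shares with one is 12 bases, with Mir19b-1 and Mir19b-2. For Mir17 that run is 13 bases, with Mir106a. The search covered annotated hairpins and not the genome. In base composition, miR-19a-3p had the lowest share of G and C of the 9 printed forms, 34.8%, against 39.1% in both miR-19b-3p and miR-20a-5p and 57.1% in miR-92a-3p. The part of sequence sharing and base composition in the low miR-19 counts was not tested.

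Every member was lower in replicate 2 than in replicate 1, and the factor varied within each cluster and within the miR-17 seed. The summed chromosome 14 counts were 1.42-fold higher in replicate 1 (exact 95% interval 1.39 to 1.45) and the chromosome 5 counts 1.48-fold higher (1.43 to 1.52). By seed, the summed counts of all loci were 1.17-fold higher in replicate 1 for the seed of Mir92-1 and Mir25. They were 1.48-fold higher for the seed of Mir17 and 1.62-fold higher for that of Mir18. Mir92-1 (1.17-fold, 1.11 to 1.23) and Mir25 (1.12-fold, 1.03 to 1.21), on different chromosomes, differed least of the 9. Mir20a (1.84-fold, 1.74 to 1.95) differed most among the 7 with at least 10 counts in both libraries.

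The others of the miR-17 seed were 1.35-fold (Mir17), 1.39-fold (Mir106b) and 1.61-fold (Mir93) higher in replicate 1, and Mir18 was 1.62-fold higher. Across the 9 members the log2 ratio of replicate 2 over replicate 1 rose with the G and C share of the printed form (Pearson r = 0.78, Spearman rho = 0.83, n = 9 genes). Without the miR-19 genes, which had 4 counts each in replicate 2, r was 0.67 and rho 0.64 (n = 7 genes). Over the 364 tested genes with a RefSeq mature form, r was 0.14 and rho 0.08, with the share averaged over a gene's annotated arms and not taken from 1 arm. These are descriptions, not among the planned comparisons, over genes that share 2 libraries and, within a cluster, a transcript. Counts do not tell the arms apart, so the printed arm need not be the one read.

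The difference between libraries was tested for every gene that reached 10 counts in 1 library or both, by a two-sided exact binomial test of the 2 counts against the library totals with Benjamini-Hochberg adjustment. A gene was called with an adjusted p under 0.05 and a log2 ratio (CPM + 0.5, replicate 2 over replicate 1) beyond 1 in size. This test compares 2 libraries and not conditions. By it 18.3% of the 404 tested genes were called, 39 as higher and 35 (8.66%) as lower in replicate 2, and 2 of the 9 members, both lower. Scaled by all reads, summary rows included, 19 genes were called higher and 63 lower.

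The called members were Mir19a, with a log2 ratio of -2.42 (adjusted p = 1.51e-05, exact test), and Mir19b-1, with -1.92 (adjusted p = 0.00302, exact test). Both reached the minimum of 10 counts only in replicate 1, the library where they were higher, so the calls support nothing about the members as a group. They rested on 4 counts in replicate 2, and their exact intervals were wide, 2.33- to 23.8-fold for Mir19a and 1.58- to 16.8-fold for Mir19b-1. The other 7 had log2 ratios from -0.88 (Mir20a) to -0.16 (Mir25) and were not called. All 9 ratios were below 0, with a median of -0.69. Of all tested genes, 54.2% lay below 0, with a median of -0.05 and quartiles of -0.51 and 0.46. The count minimum favoured negative ratios for the miR-19 genes, so only the other 7 members bear on this comparison. The median of -0.69 includes the miR-19 genes. The middle one of the other 7 ratios was that of Mir106b, -0.48, within the quartiles of all tested genes. The members of a cluster share a transcript, so the 9 ratios are not independent.

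**Figure D3:**
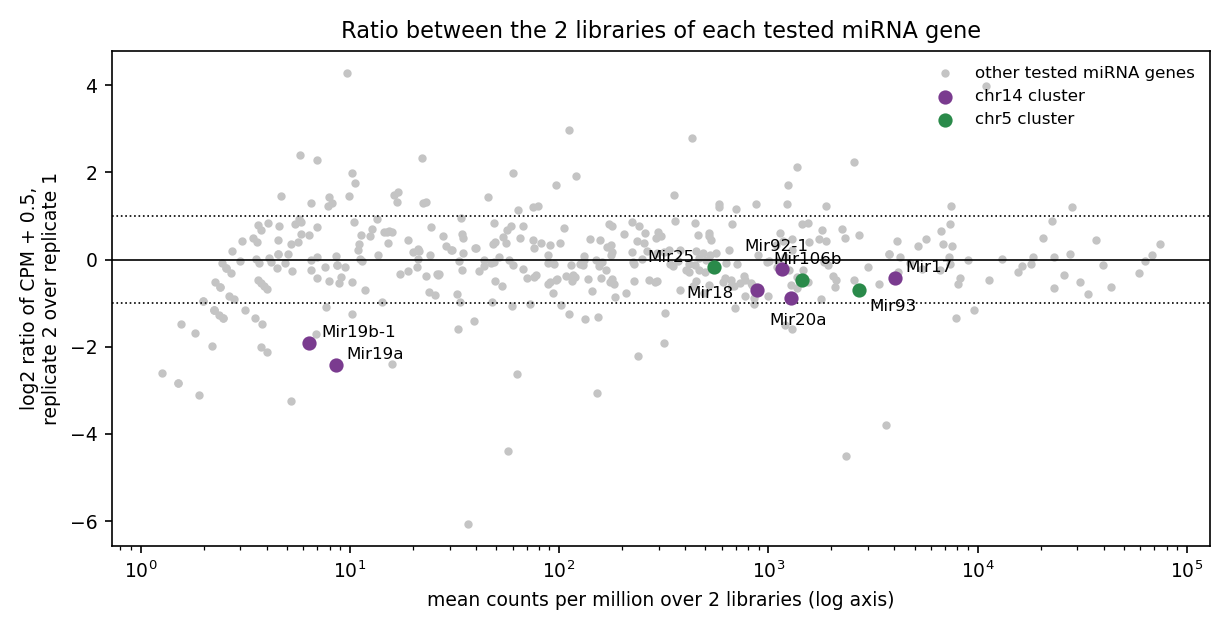
Log2 ratio of CPM + 0.5 in replicate 2 over replicate 1 against mean CPM (log axis) for the 404 tested miRNA genes, 1 point each; dotted lines mark a log2 ratio of 1 in either direction. The chromosome 14 (purple) and chromosome 5 (green) members all lie below 0, and only Mir19a and Mir19b-1 of the 9 lie below -1.

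Over the 2 libraries, the SD was 7.76% of the mean for Mir25, 10.9% for Mir92-1 and 20.9% for Mir17. It was 33.2% for Mir93 and 41.9% for Mir20a. The median over the 340 genes detected in both libraries was 22.9%. For the miR-19 genes it was 103% (Mir19a) and 88.7% (Mir19b-1), with counts too low to set a level in replicate 2. With 1 library an animal, this spread cannot be divided between animal and library. It also depends on scaling. With trimmed-mean (TMM) factors Mir25 was at 553 ± 71.7 CPM (SD, n = 2), against 551 ± 42.8 by totals. The SD of Mir92-1 was then 188 CPM, against 127.

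Markers of other cell types also differed between the libraries. Of 3 red blood cell miRNAs, Mir451a (6842 and 491 CPM) and Mir144 (393 and 84.8 CPM) were lower in replicate 2 and Mir486 (12.4 and 19.6 CPM) was not called, and none was at 0. The 5 epithelial miRNAs summed to 741 and 279 CPM, and Mir200b and Mir200c were called lower in replicate 2. Mir122 of hepatocytes went the other way, at 1299 and 20602 CPM. The 4 white blood cell miRNAs that matched a gene, of 5 listed, summed to 858 and 1338 CPM. Of these Mir223 was called higher (187 and 521 CPM), and Mir142 (421 and 617 CPM), Mir150 (133 and 131 CPM) and Mir155 (118 and 69.4 CPM) were not called. The 9 listed for striated muscle summed to 1146 and 2698 CPM, nearly all of it Mir206, with Mir133a-2 at 0 in both. Reads that fit more than 1 place are not counted, so paired loci such as Mir133a-1 and Mir133a-2 may be undercounted. A count of 0 allows up to 0.757 and 1.78 CPM. Mir126a of endothelium stood at 65222 and 83391 CPM. The part of these cells in the lower member levels of replicate 2 was not tested.

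The third group of this family lies on the X chromosome within 875 bases, chrX:52741693-52742567 on the minus strand. It holds Mir106a, Mir18b, Mir20b, Mir19b-2, Mir92-2 and Mir363. It summed to 279 and 196 CPM, a mean of 238 ± 59.3 (SD, n = 2), far below either autosomal cluster. Mir106a differs from Mir17 in its mature form only by U10A, counted from the 5′ end of miR-17-5p. It had 288 and 105 counts, so that Mir17 exceeded it 63.9-fold in replicate 1 (exact 95% interval 56.8 to 72.0) and 55.4-fold in replicate 2 (45.6 to 67.8).

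Of the other counterparts, the X-linked miR-20, miR-92 and miR-18 genes were far lower too, while the miR-19b pair had smaller ratios. Mir20b had 230 and 69 counts, and Mir20a exceeded it 28.5-fold in replicate 1 (25.0 to 32.7) and by 17.3- to 28.4-fold in replicate 2. Mir92-1 exceeded Mir92-2 27.0-fold and 25.8-fold, a pair whose counts are uncertain because of the shared run. Mir18 exceeded Mir18b 362.5-fold in replicate 1 (207 to 702) and 380-fold in replicate 2 (130 to 1847). Mir19b-2 had 7 and 2 counts, and Mir19b-1 exceeded it 5.86-fold in replicate 1 (2.60 to 15.5) and 2.00-fold in replicate 2 (0.287 to 22.1, an interval that includes 1). The X-linked miR-18 and miR-19 genes were thus the lowest of their cluster, and Mir18, in contrast, was close to Mir92-1 in its own.

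Mir363, which has no counterpart in the chromosome 14 cluster, had 387 and 81 counts. It was the only 1 of 5 X-linked genes tested that was called, a share near the 18.3% of all 404 tested genes. It was lower in replicate 2, with a log2 ratio of -1.02 (adjusted p = 1.49e-09, exact test), just past the limit of 1 in size. The other 4 had ratios from -0.63 to -0.15.

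Summed by seed, the autosomal members made up nearly all of the counts of 2 families. Of the counts of all 7 loci with the seed of Mir17, the 4 members gave 98.9% in replicate 1 (exact 95% interval 98.8 to 99.0%) and 98.7% in replicate 2 (98.5 to 98.9%). Mir6383, a locus with that seed in the RefSeq table, had no count in either library, which allows up to 0.757 and 1.78 CPM. Of the miR-18 seed, Mir18 gave 99.7% in each library. The family of Mir17 summed to 11472 and 7740 CPM, a mean of 9606 ± 2639 (SD, n = 2). Most member counts thus came from hairpins whose printed arm has this 1 seed. Reads of the other arm, which are not told apart, are included.

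The seed of Mir92-1 and Mir25 was more widely spread. Of 7 loci, the 2 members gave 85.6% (84.8 to 86.3%) and 87.0% (85.8 to 88.2%), and the family summed to 2140 and 1829 CPM. Mir32 gave 122 and 93.7 CPM, Mir363 gave 97.7 and 48.0 CPM, Mir92b gave 42.7 and 54.5 CPM, and Mir92-2 gave 46.2 and 41.5 CPM. Mir367, a miRNA of pluripotent cells, had 1 count and 0 counts. The miR-19 seed summed to 27.0 and 5.93 CPM over 3 loci, of which the members gave 93.5% (87.0 to 97.3%) and 80% (44.4 to 97.5%) of 107 and 10 counts. Reads that fit both miR-19b loci, or both miR-92a loci, are not in these family sums, which are therefore not full totals.

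**Figure D4:**
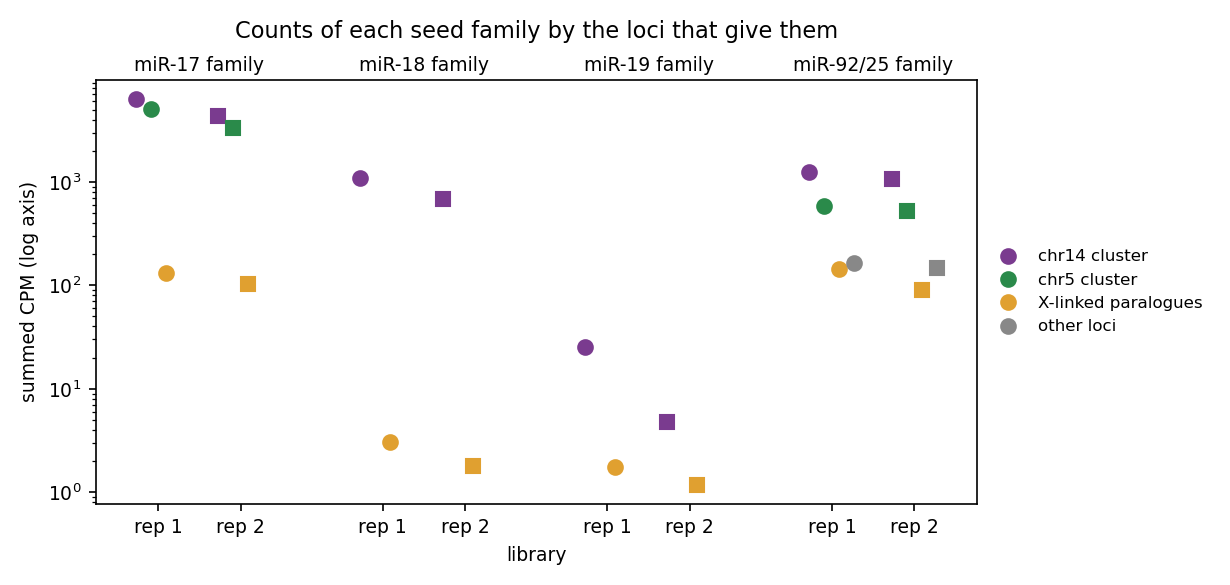
Summed CPM (log axis) of each seed family in replicate 1 (circles) and replicate 2 (squares), split by the loci that give them: chromosome 14, chromosome 5, the X-linked paralogues and other loci. The miR-17 family comes almost wholly from the autosomal clusters, more from chromosome 14 than from chromosome 5. The miR-19 family stays at or under 27.0 CPM, without reads that fit both miR-19b loci.

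Other growth-linked miRNA groups gave a scale for these levels. The X-linked group of Mir322, Mir503, Mir351 and Mir542, whose first members restrain the cell cycle, summed to 60890 and 44075 CPM, above both autosomal clusters in each library. Mir15b with Mir16-2 summed to 1511 and 2231 CPM, and Mir15a with Mir16-1 to 3287 and 3296 CPM. Reads that fit more than 1 place are not in these sums, so groups with paired loci, such as Mir16-1 and Mir16-2, may be undercounted. Mir221 with Mir222 summed to 247 and 418 CPM. The 4 sums of these groups did not all move as the member clusters did: the Mir322 group was lower in replicate 2, by 1.38-fold, while the Mir15b and Mir221 groups were higher there. Of their 10 genes, Mir222 alone was called, higher in replicate 2 (44.9 and 148 CPM), where 18.3% of all 404 tested genes were called. Within the groups other than Mir221 with Mir222, genes moved both ways. Mir15b, Mir15a, Mir351 and Mir503 had positive log2 ratios (0.82, 0.47, 0.36 and 0.10). Mir16-2, Mir16-1, Mir322 and Mir542 had negative ones (-0.28, -0.52, -0.62 and -0.18).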

How the data were processed

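Small RNA of 2 adrenal glands was sequenced, 1 library each. The authors deposited raw read counts per miRNA gene, made on mm10 with annotation M21 per the file lists deposited with the tables. Aligner, trimming and filters are not given in the sources used here. Each table has 4 summary rows, left out of totals, and 3 count columns: either strand and each strand alone. The third column was taken as the sense strand, and multimapped reads are in a summary row. The summary rows held 66.3% of replicate 1 (11770895 reads) and 74.3% of replicate 2 (6557080 reads). Symbols, positions and hairpins came from GENCODE M21, and mature sequences from RefSeq. Counts belong to a precursor, so its arms are not told apart.

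CPM, Clopper-Pearson 95% intervals and exact binomial tests were computed in Python 3.11.15 with scipy 1.17.1. Trimmed-mean (TMM) factors came from edgeR 4.0.16 and size factors from DESeq2 1.42.0. With 1 group, edgeR's group test could not be used. The exact test was tested on simulated data. The simulated counts had counting error only and no variation between animals, so they cannot say how often animals alone give a call. The genes named were all members, their X-linked paralogues, loci of the same seeds, other growth-linked groups, cell type markers and, for Mir17 and Mir93, the 3 detected genes nearest in log2 CPM. The members and lists were chosen with earlier results of these data known. P-values measure only counting error between these 2 samples.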

Additional observations from a re-analysis of the deposited data

How the results depend on the processing

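No paired analysis was possible because both libraries belong to 1 group. With 2 libraries, leaving 1 out gives the value of the other, which cannot move a mean by more than its SD. Scaling by all reads, summary rows included, gave summed levels of 2244 CPM (chromosome 14) and 1436.5 CPM (chromosome 5), since the divisor is larger. It called 5 members, adding Mir18, Mir20a and Mir93 to the miR-19 genes, among 82 of 404 genes called (20.3%). A log2 limit of 0.58 called the same 5 members. With no limit on the log2 ratio all 9 were called, among 251 of 404 genes, against 132 at 0.58. Without genes of shared mature sequence, chosen after seeing the data, 1 of 7 members tested was called (Mir19a), against 62 of 353 genes (17.6%). TMM and DESeq2 scaling, the either-strand column, 5 CPM added and a minimum of 1 count each left Mir19a and Mir19b-1 as the members called. By these settings 9.91% (minimum of 1 count) to 19.6% (TMM and DESeq2) of tested genes were called. The median ratio of all tested genes, -0.05, became -0.16 with TMM and -0.41 with all reads, a shift that member ratios share. The share of chromosome 5 was 43.1% over members of unshared mature form. The chromosome 14 run spanned 636-fold with at least 10 counts in either library, and 469-fold when genes of shared mature form were also left out, both chosen after seeing the data. The 22 remaining settings tried on cluster sums, shares, spans and the count of members stayed within 1 SD, or within 1.5 times the count. Not all of them could have moved. The either-strand column gave the same counts at these loci, so the shares by it were fixed. A gap limit of 3 kb kept the same genes in both runs, as did the other count rules in the chromosome 5 run.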
